A study of Mus musculus with 17 samples.

Results

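The 34 genes described here mark monocytes and macrophages or serve their functions, and were listed by name, not picked by a threshold on these samples. They were listed with earlier results of these data known. All 34 were measured, of 18193 genes with a probe set of their own on the array. A gene was read from the probe set that the array annotation assigns to it alone, and where there were several (17 genes), from the one with the highest mean. By known role they comprised 5 markers of resident macrophages (Adgre1, Mrc1, Cd163, Cx3cr1, Ms4a7), 11 genes of recruited or activated cells (Ccr2, Ccr1, Trem1, Clec4d, Clec4e, Clec4n, Clec7a, Ptafr, Cd80, Cd86, Arg1), 7 phagocytic and lysosomal genes (Cd68, Lyz2, Msr1, Marco, Mpeg1, Ctss, Trem2), 4 subunits of the NADPH oxidase (Cybb, Cyba, Ncf1, Ncf4) and 7 genes shared with other leukocytes (Spi1, Tyrobp, Lst1, Aif1, Laptm5, Cd53, Cd48).

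Total RNA of colonic mucosa was measured on 17 Affymetrix mouse genome arrays. CD4cre mice carry floxed PPAR γ alleles and a Cre recombinase driven by the CD4 promoter, which is active in all developing T cells, so that both CD4+ and CD8+ T cells lose the gene while macrophages are not targeted. WT mice lack Cre, and both genotypes were on the C57BL/6J background. Dextran sodium sulfate (DSS), which injures the colonic epithelium and brings on colitis, was given at 2.5% in the drinking water. The 6 groups were CD4cre mice on day 0 (no DSS), day 2 and day 7 of DSS with 3 samples each, and WT mice on day 0 and day 2 with 3 samples each and on day 7 with 2. Neither the labels nor the methods state the age of the mice or whether an array held RNA of 1 mouse, so p-values measure the spread between these samples, which may be technical.

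The mucosa of the colon holds a large population of resident macrophages that take up microbes and dying cells, and that are replaced throughout life by monocytes from the blood. Monocytes leave the bone marrow through the chemokine receptor CCR2, enter the mucosa, and lose their monocyte markers as they acquire those of resident cells such as CX3CR1 and CD163. During colitis more monocytes enter and fewer complete this course, and the incoming cells are known for inflammatory cytokines, C-type lectin receptors and a strong oxidative burst.

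Spi1 encodes PU.1, the transcription factor that all macrophages need and that binds a GAGGAA core. RefSeq promoter windows (GRCm38.p6, 250 bases before to 50 after a start) were at hand for 25 of the 34 genes in 27 windows. The letters GAGGAA, on either strand, were in 17 of these windows (63.0%), against 28.3% of the 32851 windows of all genes, which is a description of letters and not of binding. The 250 bases before the start are shown for 5 genes whose levels are described in detail below, 3 of them C-type lectin receptor genes of chromosome 6. GAGGAA and its reverse complement TTCCTC are in capitals.
Mrc1, chr2:14229164-14229413 (+ strand): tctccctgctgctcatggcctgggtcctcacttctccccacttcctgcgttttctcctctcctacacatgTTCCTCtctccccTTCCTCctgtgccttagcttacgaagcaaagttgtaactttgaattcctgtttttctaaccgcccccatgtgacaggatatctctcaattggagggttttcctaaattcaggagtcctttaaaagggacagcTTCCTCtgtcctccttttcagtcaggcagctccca
Ccr1, chr9:123968693-123968942 (- strand): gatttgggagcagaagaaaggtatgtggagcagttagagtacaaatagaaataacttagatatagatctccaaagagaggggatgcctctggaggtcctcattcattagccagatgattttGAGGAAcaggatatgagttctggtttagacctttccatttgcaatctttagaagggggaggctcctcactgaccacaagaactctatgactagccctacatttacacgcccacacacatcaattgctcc
Clec7a, chr6:129472780-129473029 (- strand): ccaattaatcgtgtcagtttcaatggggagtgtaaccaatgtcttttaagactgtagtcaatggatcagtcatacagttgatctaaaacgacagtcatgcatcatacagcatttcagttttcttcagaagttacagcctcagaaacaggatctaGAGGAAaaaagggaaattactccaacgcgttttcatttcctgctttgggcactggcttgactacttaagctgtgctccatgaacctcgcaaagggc
Clec4d, chr6:123261857-123262106 (+ strand): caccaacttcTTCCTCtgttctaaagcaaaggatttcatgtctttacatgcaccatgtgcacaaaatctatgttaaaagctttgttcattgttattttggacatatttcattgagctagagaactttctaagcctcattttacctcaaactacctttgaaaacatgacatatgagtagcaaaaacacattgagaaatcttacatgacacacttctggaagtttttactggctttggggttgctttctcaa
Clec4e, chr6:123289872-123290121 (- strand): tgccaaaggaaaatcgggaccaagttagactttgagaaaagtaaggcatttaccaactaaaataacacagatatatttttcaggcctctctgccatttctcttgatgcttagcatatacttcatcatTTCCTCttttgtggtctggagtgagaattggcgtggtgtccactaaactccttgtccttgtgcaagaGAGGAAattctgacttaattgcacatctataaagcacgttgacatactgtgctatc
The window of Mrc1 had 3 matches, all read as TTCCTC on the strand shown, while no match was found in the windows of Cd163, Cx3cr1 or Ccr2.

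Values are gcRMA summaries on the log2 scale, so a difference of 1 is 2-fold, and log2 fold changes are given ± SE. Values up to 4.21 are called background here, the 95th percentile over 108 probe sets whose genes belong to other tissues, and 42.7% to 44.4% of the probe sets of a sample lay above it. Epithelial markers averaged at least 12.2 and smooth muscle markers 11.4 to 12.6 in each sample, so both tissues were present. Pparg itself (8.28 to 11.21) passed the test in 0 of 11 comparisons, and 10 of 12 T cell markers were at or under background in all samples, so the deletion in T cells cannot be checked here. Pancreas transcripts, at a median of 2.60 or less elsewhere, reached 12.32 or more in 3 samples (CD4cre day 0 replicate 2, CD4cre day 2 replicate 1, WT day 2 replicate 2). A Hox score of position along the colon was 1.26 to 1.57 in WT mice on day 2 and -0.96 to 0.57 in WT mice on day 0. It was -1.27 to -1.055 in WT mice on day 7, below all CD4cre samples of day 7. Replicate 2 of CD4cre day 7 scored 0.70 and its companions -0.92 and -0.93. This replicate 2 was the highest of its group for 30 of the 34 genes. Its neutrophil markers averaged 5.14, against 4.46 and 4.26 in replicates 1 and 3, and its B and plasma cell markers 5.74, against 4.40 and 4.33. Fits with the Hox score as covariate, without the samples with pancreas transcripts and without each sample in turn are given below. Whether these differences caused any result was not tested.

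In CD4cre mice, genes of every role rose between day 0 and day 7 of DSS. Of the 34 genes, 25 were higher on day 7 and 0 were lower at an adjusted p under 0.05 (Arg1 among them on values under background only), where 3.50% of all probe sets tested were higher and 6.74% changed in either direction. The median log2 fold change of the 34 genes was 1.84, and 1.76 with group means raised to the background level, against -0.027 over all probe sets. Day 7 values lay above every day 0 value for 28 genes, which held for 8.63% of all probe sets. The 9 genes that did not pass were Cx3cr1, Trem1, Clec4e, Ptafr, Cd80, Cd86, Marco, Trem2 and Spi1, and 28 genes had an unadjusted p under 0.05, as had 22.9% of all probe sets. In whole mucosa, more cells of a type and more RNA per cell cannot be told apart. Of the 25, 18 kept their call whichever single sample was left out, while those of Adgre1, Ncf4, Ms4a7, Cd48, Clec4n, Clec4d and Cd53 were lost in 14, 12, 5, 4, 4, 3 and 1 of the 17 such fits. A fit of only the CD4cre day 7 and day 0 samples called 0 of the 34, with adjusted p of 0.0889 to 0.233 for the 25. Without the samples with pancreas transcripts 17 of the 25 kept their call. Adgre1, Ms4a7, Ctss, Ncf4, Cd48, Cd53, Clec4d and Clec4n lost theirs. With the Hox score as covariate all 25 kept their call.

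**Figure D1:**
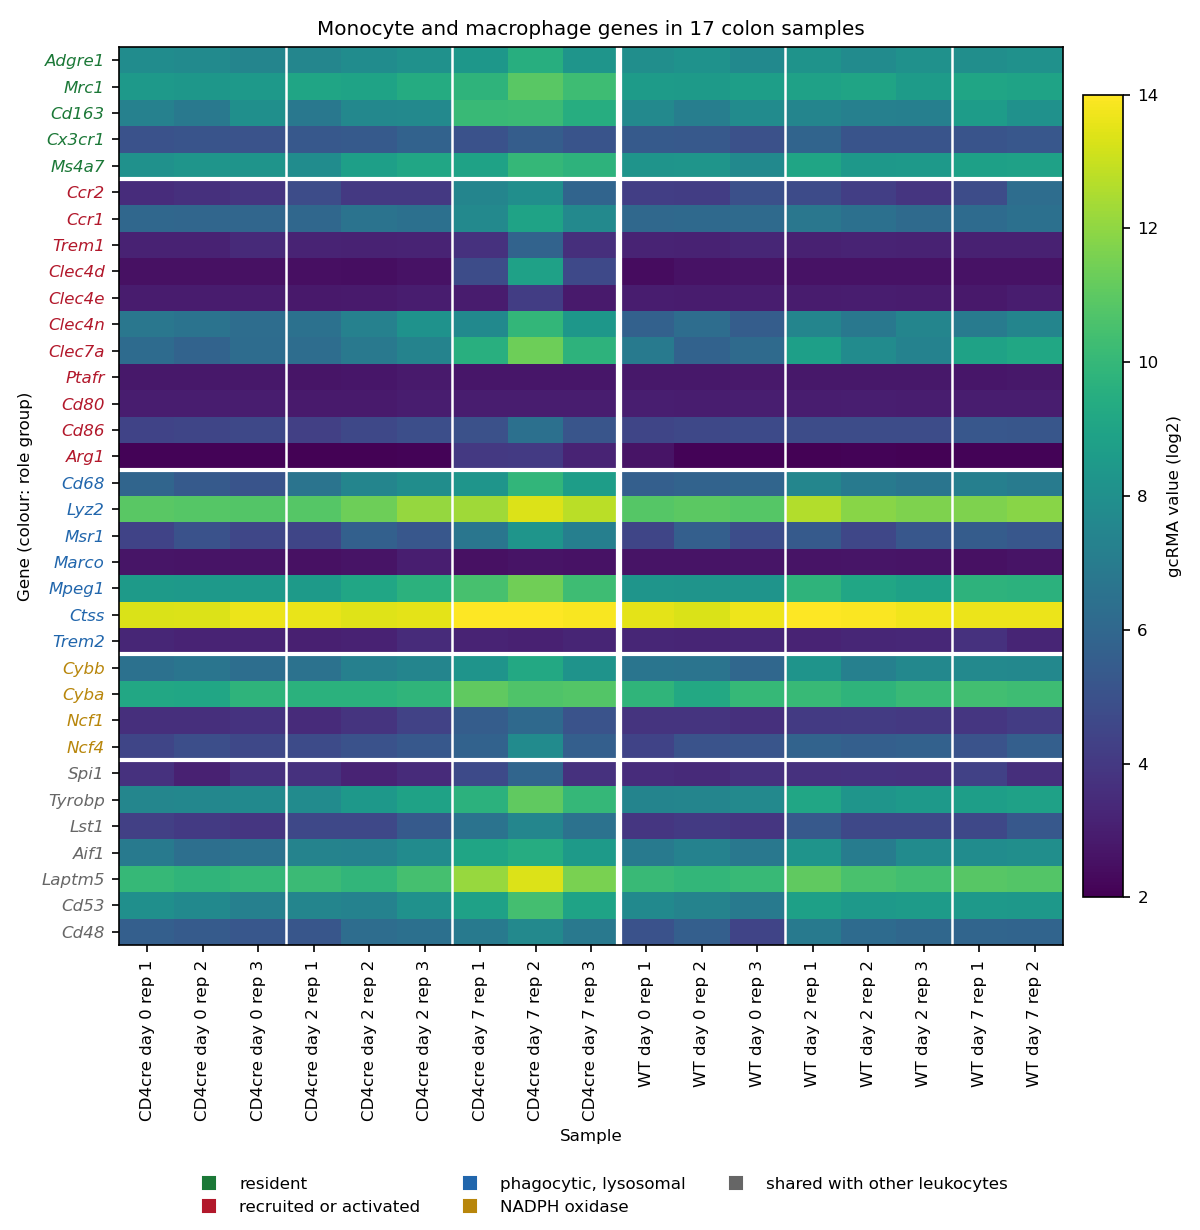
Heat map of the gcRMA values (log2, colour scale) of the 34 genes (rows, by role) in the 17 samples (columns, CD4cre before WT, by day). The CD4cre day 7 columns are the brightest for most rows, replicate 2 above all, while Ptafr, Cd80, Marco and Trem2 stay dark in every sample.

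Among the resident macrophage markers, 4 of 5 rose in CD4cre mice by day 7, with a median log2 fold change of 1.38. Mrc1 encodes the mannose receptor CD206, which takes up microbial sugars and tissue debris. CD4cre samples of Mrc1 had values of 8.5, 8.36 and 8.51 on day 0, 9.04, 8.98 and 9.39 on day 2, and 9.8, 10.94 and 10.29 on day 7. WT samples had 8.58, 8.56 and 8.73 on day 0, 8.85, 9.01 and 8.59 on day 2, and 9.06 and 8.96 on day 7. All CD4cre samples of day 7 lay above all other samples. The log2 fold change of Mrc1 on day 7 against day 0 was 1.88 ± 0.22 at an adjusted p of 0.000993 in CD4cre mice and 0.39 ± 0.25 at an adjusted p of 0.5 in WT mice. Cd163 encodes the scavenger receptor for haemoglobin bound to haptoglobin. For Cd163 the CD4cre samples had 7.26, 6.83 and 7.99 on day 0, 6.79, 7.6 and 7.66 on day 2, and 10.11, 10.17 and 9.48 on day 7. The WT values were 7.65, 7.13 and 7.79 on day 0, 7.44, 7.22 and 7.18 on day 2, and 8.62 and 8.05 on day 7. The CD4cre day 7 samples again exceeded all others, and the WT samples of day 7 exceeded those of WT day 0. On the log2 scale, day 7 minus day 0 came to 2.56 ± 0.33 at an adjusted p of 0.00144 in CD4cre mice and 0.81 ± 0.36 at an adjusted p of 0.488 in WT mice.

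Adgre1 encodes the surface antigen by which mouse macrophages are most often stained. The values of Adgre1 in CD4cre mice were 7.82, 7.73 and 7.46 on day 0, 7.51, 7.82 and 8.08 on day 2, and 8.36, 9.51 and 8.27 on day 7. In WT mice they were 7.94, 8.12 and 7.7 on day 0, 8.18, 7.8 and 8.05 on day 2, and 7.93 and 8.07 on day 7. Its rise in CD4cre mice was small, 1.04 ± 0.28 at an adjusted p of 0.0447, and replicate 2 stood well above the other samples of day 7. Without that sample it was 0.64 (adjusted p = 0.0647), which did not pass. Ms4a7 encodes a tetraspan membrane protein of macrophages. In CD4cre mice Ms4a7 was at 8.09, 8.25 and 8.2 on day 0, 7.85, 8.75 and 9.09 on day 2, and 8.93, 10.0 and 9.76 on day 7. In WT mice it was at 8.23, 8.25 and 7.69 on day 0, 9.05, 8.39 and 8.43 on day 2, and 8.82 and 8.85 on day 7. It rose by day 7 in CD4cre mice, 1.38 ± 0.33 at an adjusted p of 0.0288, with day 7 replicate 1 below the highest samples of day 2 in both genotypes. Without replicate 2 of day 7 its value was 1.17 (adjusted p = 0.0916) and did not pass.

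Cx3cr1, the fractalkine receptor that is acquired as monocytes mature in the gut, was the exception among the resident markers. CD4cre samples of Cx3cr1 had values of 5.0, 5.14 and 5.08 on day 0, 5.3, 5.38 and 5.79 on day 2, and 5.0, 5.53 and 5.14 on day 7. WT samples had 5.4, 5.33 and 4.97 on day 0, 5.85, 5.14 and 5.14 on day 2, and 5.13 and 5.25 on day 7. Day 7 overlapped day 0 in both genotypes, while CD4cre mice on day 2 lay above those on day 0. The log2 fold change on day 7 was 0.15 ± 0.21 at an adjusted p of 0.637 in CD4cre mice and -0.04 ± 0.23 at an adjusted p of 0.959 in WT mice. A further probe set of Cx3cr1 was at or under background in all samples. The ligand Cx3cl1, made by epithelium and endothelium, showed a log2 fold change of 0.38 in CD4cre mice (SE 0.16, adjusted p = 0.183).

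**Figure D2:**
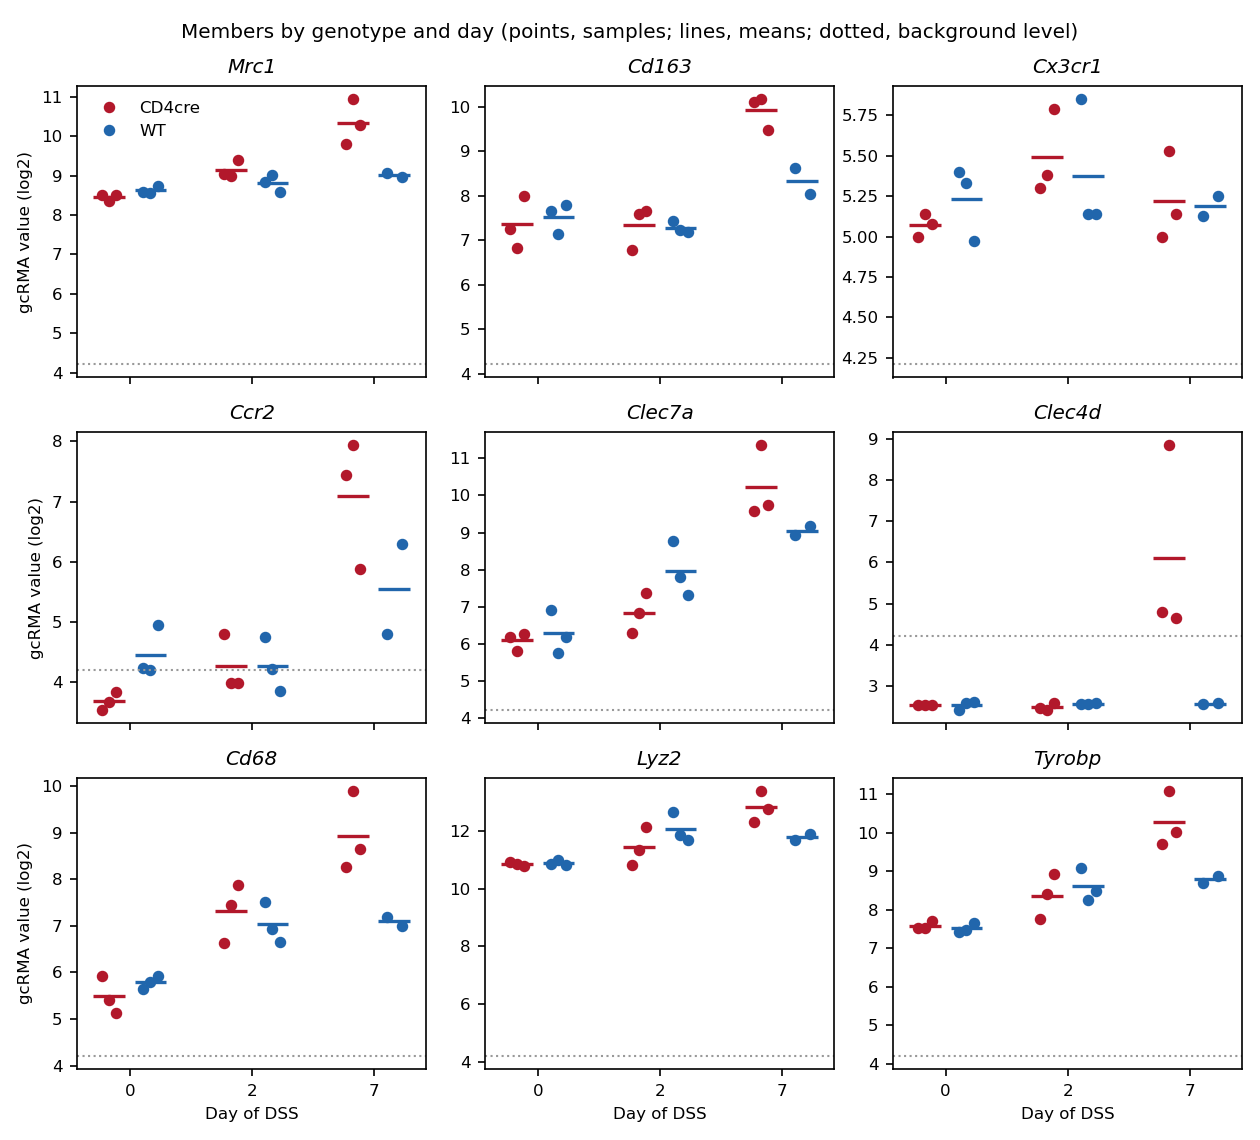
Values (log2) of 9 genes by day of DSS on the x axis, with CD4cre in red to the left of WT in blue; points are samples, lines are group means and the dotted line is the background level of 4.21. Mrc1, Cd163, Clec7a, Cd68 and Tyrobp in CD4cre mice on day 7 sit above all other points, while those of Cx3cr1 overlap day 0.

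Among the 11 genes of recruited or activated cells, 6 rose in CD4cre mice by day 7 (Ccr2, Ccr1, Clec7a, Clec4d, Clec4n and Arg1), where Arg1 was called on values under background. The median over the 11 log2 fold change was 1.63, and 1.01 with group means raised to background, since 7 of the 11 were at background on day 0. Ccr2 is the receptor for CCL2 through which monocytes reach inflamed tissue. For Ccr2 the CD4cre samples had 3.54, 3.67 and 3.84 on day 0, 4.81, 3.99 and 3.99 on day 2, and 7.44, 7.94 and 5.89 on day 7. The WT values were 4.23, 4.2 and 4.95 on day 0, 4.76, 4.22 and 3.85 on day 2, and 4.8 and 6.3 on day 7. CD4cre day 7 replicate 3 lay below WT day 7 replicate 2, so these groups overlapped. This probe set was at background in CD4cre mice on day 0 and at least 7.34-fold higher on day 7 (fitted log2 fold change 3.41 ± 0.51, adjusted p = 0.00337). The probe sets of Ccr2 disagreed, since a dimmer one that was above background on day 0 (4.24 to 4.74 in CD4cre mice) had 4.73 to 5.49 on day 7 and did not pass (0.45, adjusted p = 0.276), nor did the other 2. Ccr1 is a receptor for CCL3 and CCL5. The values of Ccr1 in CD4cre mice were 6.0, 5.95 and 5.95 on day 0, 5.99, 6.55 and 6.42 on day 2, and 7.66, 8.94 and 7.66 on day 7. In WT mice they were 6.05, 6.11 and 6.17 on day 0, 6.77, 6.44 and 6.14 on day 2, and 6.18 and 6.41 on day 7. All CD4cre samples of day 7 exceeded all others. Its log2 fold change was 2.12 ± 0.29 at an adjusted p of 0.00206 in CD4cre mice and 0.18 ± 0.32 at an adjusted p of 0.823 in WT mice. A dimmer probe set of Ccr1 had 3.62, 6.64 and 4.19 in CD4cre mice on day 7 and did not pass (1.42, adjusted p = 0.147).

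The C-type lectin receptors of this group recognise fungal and mycobacterial sugars and lipids and signal through Syk. Clec7a, which encodes Dectin-1, the receptor for beta-glucan, had the largest log2 fold change in CD4cre mice on day 7 of the genes above background on day 0. In CD4cre mice Clec7a was at 6.19, 5.81 and 6.26 on day 0, 6.28, 6.84 and 7.36 on day 2, and 9.58, 11.36 and 9.75 on day 7. In WT mice it was at 6.92, 5.75 and 6.17 on day 0, 8.77, 7.79 and 7.32 on day 2, and 8.93 and 9.17 on day 7. In WT mice it was already above the day 0 samples on day 2. Against day 0, day 7 differed on the log2 scale by 4.14 ± 0.50 at an adjusted p of 0.00106 in CD4cre mice and 2.77 ± 0.56 at an adjusted p of 0.138 in WT mice. Clec4n (Dectin-2) spanned 7.69 to 9.94 in CD4cre mice and 7.00 to 7.47 in WT mice on day 7, against 6.29 to 6.75 and 5.56 to 6.28 on day 0 of the same genotypes. It rose in CD4cre mice, 2.13 ± 0.52 at an adjusted p of 0.0313, but without replicate 2 of day 7 the value was 1.49 (adjusted p = 0.0725).

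Clec4d and Clec4e encode MCL and Mincle, which pair on the cell surface. CD4cre samples of Clec4d had values of 2.54, 2.54 and 2.55 on day 0, 2.48, 2.43 and 2.59 on day 2, and 4.8, 8.85 and 4.66 on day 7. WT samples had 2.42, 2.58 and 2.62 on day 0, 2.57, 2.57 and 2.58 on day 2, and 2.57 and 2.58 on day 7. Clec4d was above background in CD4cre mice on day 7 only, and there replicate 2 stood apart from the other 2 samples. By the group mean, which replicate 2 raised, it exceeded day 0 at least 3.70-fold (adjusted p = 0.0222). It passed also without replicate 2 (adjusted p = 7.95e-09), where its values in all other groups were at background with SDs of 0.01 to 0.1. With low values raised to background the call of Clec4d was lost (log2 difference 1.89, adjusted p = 0.110). Clec4e did not leave background with the probe set of highest mean (2.82 to 4.17 over all samples). Its other probe set had values of 4.52, 8.19 and 3.76 in CD4cre mice on day 7 and of 1.98 to 2.06 in all other samples, with replicate 2 far the highest as for Clec4d.

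Arg1 encodes arginase 1, an enzyme of alternatively activated macrophages. For Arg1 the CD4cre samples had 2.11, 2.1 and 2.11 on day 0, 2.06, 2.09 and 2.1 on day 2, and 3.98, 4.02 and 3.21 on day 7. The WT values were 2.64, 2.11 and 2.12 on day 0, 2.07, 2.1 and 2.09 on day 2, and 2.1 and 2.1 on day 7. It passed the test on day 7 in CD4cre mice (adjusted p = 0.000839), but all its values were under the background level of 4.21, so that its level is only bounded and no change is given. Trem1, an amplifier of neutrophil and monocyte responses, was above background in 1 sample only, CD4cre day 7 replicate 2 (5.82), and Cd86, a costimulatory ligand, reached 6.42 there and 4.96 and 5.16 in replicates 1 and 3, against 4.41 to 4.58 in CD4cre mice on day 0. Neither passed (adjusted p = 0.139 for Trem1 and 0.056 for Cd86). Ptafr, the receptor for platelet-activating factor, and Cd80, the other costimulatory ligand, were at or under background in all samples.

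Of the 7 phagocytic and lysosomal genes, 5 rose in CD4cre mice by day 7, with a median log2 fold change of 1.96. Cd68 encodes macrosialin of the late endosome. The values of Cd68 in CD4cre mice were 5.92, 5.4 and 5.14 on day 0, 6.64, 7.44 and 7.88 on day 2, and 8.26, 9.9 and 8.66 on day 7. In WT mice they were 5.65, 5.8 and 5.92 on day 0, 7.52, 6.93 and 6.66 on day 2, and 7.2 and 6.99 on day 7. Both genotypes were above their day 0 samples on day 2 already, and in CD4cre mice day 7 exceeded every other sample. Its log2 fold change by day 7 was 3.45 ± 0.41 at an adjusted p of 0.000997 in CD4cre mice and 1.31 ± 0.46 at an adjusted p of 0.488 in WT mice. Mpeg1 encodes perforin-2, which makes pores in engulfed bacteria. In CD4cre mice Mpeg1 was at 8.53, 8.49 and 8.51 on day 0, 8.54, 9.12 and 9.69 on day 2, and 10.51, 11.39 and 10.28 on day 7. In WT mice it was at 8.28, 8.21 and 8.2 on day 0, 9.82, 9.09 and 8.85 on day 2, and 9.77 and 9.72 on day 7. The CD4cre samples of day 7 were above all others, and all WT samples under DSS were above WT day 0. On the log2 scale, day 7 minus day 0 came to 2.21 ± 0.32 at an adjusted p of 0.00292 in CD4cre mice and 1.52 ± 0.36 at an adjusted p of 0.241 in WT mice.

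Msr1, the scavenger receptor for modified lipoproteins and bacterial lipids, was well above background in CD4cre mice on day 7. CD4cre samples of Msr1 had values of 4.4, 5.04 and 4.55 on day 0, 4.5, 5.68 and 5.25 on day 2, and 6.7, 8.25 and 7.18 on day 7. WT samples had 4.53, 5.62 and 4.85 on day 0, 5.4, 4.57 and 5.25 on day 2, and 5.49 and 5.25 on day 7. All CD4cre samples of day 7 exceeded all others, while WT day 7 overlapped WT day 0. Its log2 fold change was 2.72 ± 0.43 at an adjusted p of 0.00415 in CD4cre mice and 0.37 ± 0.48 at an adjusted p of 0.741 in WT mice. Dimmer probe sets of Msr1 did not pass in CD4cre mice (1.05, 0.55 and -0.02). Lyz2 encodes lysozyme M, which cuts bacterial cell walls. For Lyz2 the CD4cre samples had 10.93, 10.85 and 10.8 on day 0, 10.83, 11.35 and 12.12 on day 2, and 12.3, 13.39 and 12.77 on day 7. The WT values were 10.84, 10.98 and 10.83 on day 0, 12.64, 11.86 and 11.7 on day 2, and 11.7 and 11.89 on day 7. Here WT day 2 replicate 1 reached the range of CD4cre day 7. Against day 0, day 7 differed on the log2 scale by 1.96 ± 0.33 at an adjusted p of 0.00599 in CD4cre mice and 0.91 ± 0.37 at an adjusted p of 0.488 in WT mice. Ctss encodes cathepsin S, the protease that trims the invariant chain of MHC class II. The values of Ctss in CD4cre mice were 13.32, 13.37 and 13.66 on day 0, 13.62, 13.4 and 13.52 on day 2, and 14.24, 14.31 and 13.88 on day 7. In WT mice they were 13.53, 13.34 and 13.7 on day 0, 14.01, 13.91 and 13.74 on day 2, and 13.64 and 13.66 on day 7. Of the genes that rose and were above background on day 0, it rose least, 0.69 ± 0.13 at an adjusted p of 0.00992, and WT day 2 overlapped CD4cre day 7. Marco, a scavenger receptor, and Trem2, a lipid sensor, were at or under background in all samples.

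The NADPH oxidase makes the superoxide of the phagocyte burst, and all 4 of its measured subunits rose in CD4cre mice by day 7. Cybb encodes the membrane subunit gp91phox. In CD4cre mice Cybb was at 6.46, 6.68 and 6.33 on day 0, 6.5, 7.24 and 7.48 on day 2, and 8.19, 9.25 and 8.18 on day 7. In WT mice it was at 6.65, 6.6 and 6.03 on day 0, 8.22, 7.24 and 7.59 on day 2, and 7.64 and 7.61 on day 7. WT day 2 replicate 1 lay within the CD4cre day 7 range. The log2 fold change was 2.05 ± 0.34 at an adjusted p of 0.00549 in CD4cre mice and 1.2 ± 0.38 at an adjusted p of 0.47 in WT mice. Cyba encodes its partner p22phox, which other cells make too. CD4cre samples of Cyba had values of 9.21, 9.11 and 9.79 on day 0, 9.67, 9.67 and 9.86 on day 2, and 11.05, 10.69 and 10.81 on day 7. WT samples had 9.85, 9.23 and 10.02 on day 0, 10.1, 9.81 and 10.15 on day 2, and 10.35 and 10.29 on day 7. Every CD4cre sample of day 7 exceeded every other sample. On the log2 scale, day 7 minus day 0 came to 1.48 ± 0.21 at an adjusted p of 0.00251 in CD4cre mice and 0.62 ± 0.23 at an adjusted p of 0.488 in WT mice. Ncf1 encodes the organizer p47phox. For Ncf1 the CD4cre samples had 3.6, 3.61 and 3.75 on day 0, 3.49, 3.79 and 4.36 on day 2, and 5.53, 6.11 and 5.06 on day 7. The WT values were 3.82, 3.79 and 3.65 on day 0, 4.05, 4.07 and 3.99 on day 2, and 3.88 and 4.14 on day 7. It left background clearly in CD4cre mice on day 7 alone. There Ncf1 exceeded day 0 at least 2.55-fold (adjusted p = 0.0013), while its other probe sets did not pass. Ncf4, which encodes p40phox, had values of 5.75, 7.78 and 5.65 in CD4cre mice on day 7 and 4.52, 4.89 and 4.59 on day 0. Its log2 fold change was 1.73 ± 0.45 at an adjusted p of 0.0414, and replicate 2 stood far above the other day 7 samples.

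Of the 7 genes shared with other leukocytes, 6 rose in CD4cre mice by day 7, with a median log2 fold change of 2.38. Tyrobp encodes DAP12, the signalling adaptor of Trem receptors. The values of Tyrobp in CD4cre mice were 7.53, 7.54 and 7.7 on day 0, 7.77, 8.42 and 8.92 on day 2, and 9.71, 11.09 and 10.01 on day 7. In WT mice they were 7.43, 7.48 and 7.67 on day 0, 9.09, 8.25 and 8.49 on day 2, and 8.71 and 8.88 on day 7. The CD4cre samples of day 7 stood above all others, and WT day 2 and day 7 above WT day 0. Against day 0, day 7 differed on the log2 scale by 2.68 ± 0.35 at an adjusted p of 0.00162 in CD4cre mice and 1.27 ± 0.39 at an adjusted p of 0.447 in WT mice. Lst1 encodes a leukocyte transmembrane adaptor. In CD4cre mice Lst1 was at 4.28, 4.05 and 3.92 on day 0, 4.58, 4.58 and 5.42 on day 2, and 6.55, 7.52 and 6.53 on day 7. In WT mice it was at 3.92, 4.05 and 3.92 on day 0, 5.37, 4.58 and 4.59 on day 2, and 4.59 and 5.29 on day 7. The gap between CD4cre day 7 and the next sample, CD4cre day 2 replicate 3, was wide. The log2 fold change was 2.79 ± 0.32 at an adjusted p of 0.000939 in CD4cre mice. WT mice were at background on day 0 and at least 1.65-fold higher on day 7 (fitted log2 fold change 0.97 ± 0.36, adjusted p = 0.488). Aif1 encodes the actin-bundling protein Iba1 of macrophages. CD4cre samples of Aif1 had values of 6.96, 6.38 and 6.54 on day 0, 7.37, 7.34 and 7.8 on day 2, and 9.06, 9.42 and 8.53 on day 7. WT samples had 6.94, 7.34 and 6.79 on day 0, 8.21, 7.05 and 7.8 on day 2, and 7.83 and 7.95 on day 7. CD4cre day 7 exceeded all other samples. It had a log2 fold change of 2.38 ± 0.30 at an adjusted p of 0.0013 in CD4cre mice and 0.87 ± 0.33 at an adjusted p of 0.488 in WT mice.

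Laptm5 encodes a lysosomal membrane protein of blood cells. For Laptm5 the CD4cre samples had 10.05, 9.83 and 9.98 on day 0, 10.19, 9.92 and 10.44 on day 2, and 12.15, 13.36 and 11.58 on day 7. The WT values were 10.14, 9.96 and 10.08 on day 0, 11.06, 10.56 and 10.39 on day 2, and 10.86 and 10.79 on day 7. All CD4cre day 7 samples were above all others, replicate 2 most. On the log2 scale, day 7 minus day 0 came to 2.41 ± 0.34 at an adjusted p of 0.00249 in CD4cre mice and 0.77 ± 0.38 at an adjusted p of 0.488 in WT mice, and 2 of its other probe sets also rose in CD4cre mice (3.12 and 1.57). Cd53 encodes a tetraspanin of leukocytes. The values of Cd53 in CD4cre mice were 7.96, 7.69 and 7.22 on day 0, 7.46, 7.31 and 8.07 on day 2, and 8.88, 10.42 and 8.96 on day 7. In WT mice they were 7.68, 7.35 and 6.94 on day 0, 8.83, 8.51 and 8.57 on day 2, and 8.5 and 8.41 on day 7. The lowest CD4cre sample of day 7 was only just above WT day 2 replicate 1. Cd53 had a log2 fold change of 1.8 ± 0.37 at an adjusted p of 0.0151 in CD4cre mice and 1.13 ± 0.41 at an adjusted p of 0.488 in WT mice. Cd48, a ligand of CD2 and CD244, spanned 6.83 to 7.65 in CD4cre mice on day 7 and 5.27 to 5.63 on day 0, and rose as well, 1.67 ± 0.38 at an adjusted p of 0.0238. Spi1 was at background in CD4cre mice on day 0, with values of 4.70, 5.92 and 3.72 on day 7, and did not pass (adjusted p = 0.0966).

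In WT mice 0 of the 34 genes passed in limma on day 7 against day 0, where 0.0866% of all probe sets did, and 12 had an unadjusted p under 0.05 (9.57% of all probe sets). Their median log2 fold change was 0.55, against -0.027 over all probe sets, and it was 0.39 for the resident markers, 0.03 for the recruited or activated genes, 0.37 for the phagocytic and lysosomal genes, 0.55 for the oxidase and 0.87 for the shared leukocyte genes. WT day 7 values lay above every WT day 0 value for 19 genes, as for 10.1% of all probe sets. Clec7a had the lowest adjusted p (0.138), followed by Mpeg1 (0.241). Without CD4cre day 7 replicate 2, which enters through the shared spread, Clec7a passed (2.77, adjusted p = 0.0388). With array quality weights 10 of the 34 passed, Tyrobp, Mpeg1, Clec7a and Cd68 among them. The estimate of these weights ended before convergence, and the share of all probe sets passing with them is not given here.

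**Figure D3:**
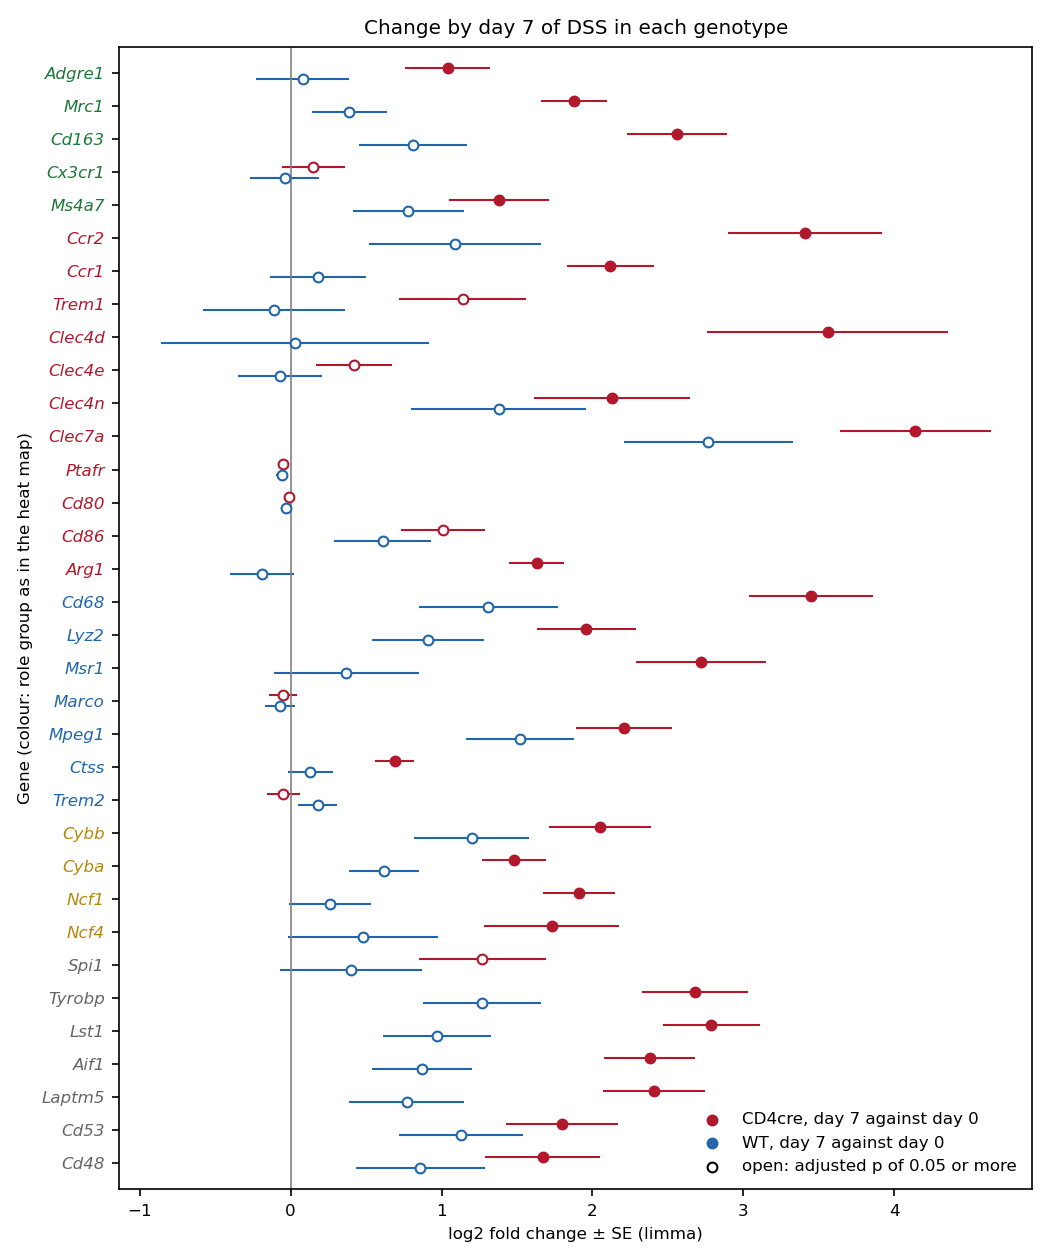
Log2 fold change ± SE of the 34 genes on day 7 against day 0, in CD4cre mice (red, upper of each pair) and in WT mice (blue), on 1 linear axis, with filled points for an adjusted p under 0.05. The 25 filled points are all CD4cre, Clec7a lies farthest right in both genotypes, and points of genes at background on day 0, such as Clec4d and Arg1, are fitted values and no bounds.

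In CD4cre mice 0 of 34 passed in limma on day 2 against day 0 (0.0178% of all probe sets, either direction; 6 genes and 6.62% of all probe sets at an unadjusted p under 0.05), with a median log2 fold change of 0.36. Values of day 2 lay above all of day 0 for 9 genes, against 5.23% of all probe sets. CD4cre day 2 replicate 3 was the highest of its group for 29 of the 34 genes and replicate 1, a sample with pancreas transcripts, the lowest for 24. In WT mice 0 of 34 passed on day 2 (0.449% of all probe sets; 12 genes and 9.60% of all probe sets at an unadjusted p under 0.05), with a median of 0.30. There 16 genes lay above all of day 0, against 6.59% of all probe sets. Without CD4cre day 7 replicate 2, 1 gene passed in WT mice on day 2. With array quality weights, whose estimate ended before convergence, 12 were higher and 1 lower (share of all probe sets not given here). The largest log2 fold changes on day 2 were those of Cd68 in CD4cre mice (1.84 ± 0.41, adjusted p = 0.204) and of Clec7a in WT mice (1.68 ± 0.50, adjusted p = 0.209).

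Most genes rose in CD4cre mice between day 2 and day 7. There 20 of 34 genes were higher on day 7 than on day 2 and 0 were lower (2.49% of all probe sets higher, 5.42% in either direction), with a median log2 fold change of 1.39. They included Clec7a (3.41 ± 0.50, adjusted p = 0.0033), Ccr2 (2.82 ± 0.51, adjusted p = 0.00947) and Cd163 (2.57 ± 0.33, adjusted p = 0.00166). Clec4d was also among them, at background on day 2 and at least 3.70-fold higher on day 7 (adjusted p = 0.0238), by a mean that day 7 replicate 2 raised. Among the resident markers, only Mrc1 and Cd163 passed in this comparison. The count was 12 without CD4cre day 2 replicate 2 and 10 without the samples with pancreas transcripts. In WT mice 0 of 34 passed on day 7 against day 2 (0.244% of all probe sets; 2 genes and 10.1% of all probe sets at an unadjusted p under 0.05), with a median of 0.01.

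Before DSS, on day 0, 0 of 34 genes passed between CD4cre and WT mice (0.00666% of all probe sets; 0 genes and 4.52% of all probe sets at an unadjusted p under 0.05), with a median log2 fold change of -0.06. On day 2, 0 of 34 passed (0.0422% of all probe sets; 4 genes and 7.33% of all probe sets at an unadjusted p under 0.05), with a median of -0.10. Clec7a then had the lowest log2 fold change of CD4cre against WT mice, -1.14 ± 0.50 at an adjusted p of 0.654. The difference of the day 2 effects passed for 0 of 34 genes (0.00222% of all probe sets; 1 gene and 4.28% of all probe sets at an unadjusted p under 0.05).

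On day 7, 5 of the 34 genes were higher in CD4cre than in WT mice and 0 were lower, where 0.706% of all probe sets were higher and 1.51% differed in either direction. They were Ccr1 (1.79 ± 0.32, adjusted p = 0.0249), Lst1 (1.93 ± 0.36, adjusted p = 0.0283), Mrc1 (1.33 ± 0.25, adjusted p = 0.0283), Ncf1, at background in WT mice and at least 2.55-fold higher in CD4cre mice (adjusted p = 0.0202), and Arg1 (adjusted p = 0.00432), whose values were under background in all samples. Clec4d, at background in WT mice and at least 3.70-fold higher in CD4cre mice by a mean that replicate 2 raised, did not pass (adjusted p = 0.0771). Nor did Cd163 (1.58 ± 0.36, adjusted p = 0.0557), Msr1 (2.01 ± 0.48, adjusted p = 0.063) or Cd68 (1.84 ± 0.46, adjusted p = 0.0736). The median over the 34 genes was 1.07, against -0.009 over all probe sets, and 24 had an unadjusted p under 0.05 (15.2% of all probe sets). All CD4cre values lay above both WT values for 25 genes, as for 10.3% of all probe sets. The count was 14 without CD4cre day 7 replicate 3, 1 without WT day 7 replicate 1 and 2 without WT day 7 replicate 2. Of the 5, only Arg1 kept its call whichever single sample was left out, and a fit of the day 7 samples alone called 0. With the Hox score as covariate Ccr1, Lst1 and Mrc1 lost their calls, and with means over probe sets Ccr1 and Ncf1 lost theirs.

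Whether the day 7 effect itself differed between the genotypes was tested by the difference of the effects. Of the 34 genes, 1 passed, Arg1 (adjusted p = 0.0318), where 0.140% of all probe sets did, and as all values of Arg1 were under background, no gene with a measured level passed. The fitted day 7 effect was larger in CD4cre mice for 33 genes, with a median difference of 1.00, against 0.004 over all probe sets. The 33 included genes at background in all groups, such as Ptafr and Cd80, and the smallest difference among recruited or activated genes was 0.01. Of the 34 genes, 16 had an unadjusted p under 0.05 (9.83% of all probe sets). Among resident markers the difference was 1.5 ± 0.33 at an adjusted p of 0.112 for Mrc1 and 1.75 ± 0.49 at an adjusted p of 0.198 for Cd163, and among recruited or activated genes 1.93 ± 0.43 at an adjusted p of 0.113 for Ccr1, none of which passed. Without CD4cre day 7 replicate 2 the count was 3 (Arg1, Ccr1 and Clec4d) and the median 0.56. It was 2 without replicate 1 and 5 without replicate 3 of the same group, and 0 without any 1 of the CD4cre day 0, WT day 2 or WT day 7 samples, of CD4cre day 2 replicates 2 and 3, or of WT day 0 replicates 1 and 3.

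On the mean level of each role group, CD4cre mice on day 7 stood apart from the other groups. The resident markers averaged 8.44, 9.23 and 8.59 in CD4cre mice on day 7 and 7.91 and 7.84 in WT mice on day 7, against 7.26 to 7.45 in CD4cre mice and 7.38 to 7.56 in WT mice on day 0. The recruited or activated genes averaged 5.31, 6.65 and 5.17 in CD4cre mice and 4.40 and 4.64 in WT mice on day 7, against 3.91 to 3.97 and 3.95 to 4.04 on day 0 of the same genotypes. For resident and for recruited or activated genes alike, CD4cre mice on day 7 did not overlap any other group, and replicate 2 was the highest. Over single genes, CD4cre day 7 had the highest group mean for 29 of the 34 (share of all probe sets not counted), of which Arg1 and Clec4e were at background in all groups. The exceptions were Cx3cr1 and Marco, highest in CD4cre mice on day 2, and Ptafr and Cd80, highest in WT mice on day 0. Trem2 was a further exception, highest in WT mice on day 7. Of these exceptions only Cx3cr1 was above background. The spread between samples was largest in CD4cre mice on day 7 (root mean square SD 0.514, against 0.212 to 0.396 elsewhere). The count of 29 is therefore not read as particular to these genes.

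**Figure D4:**
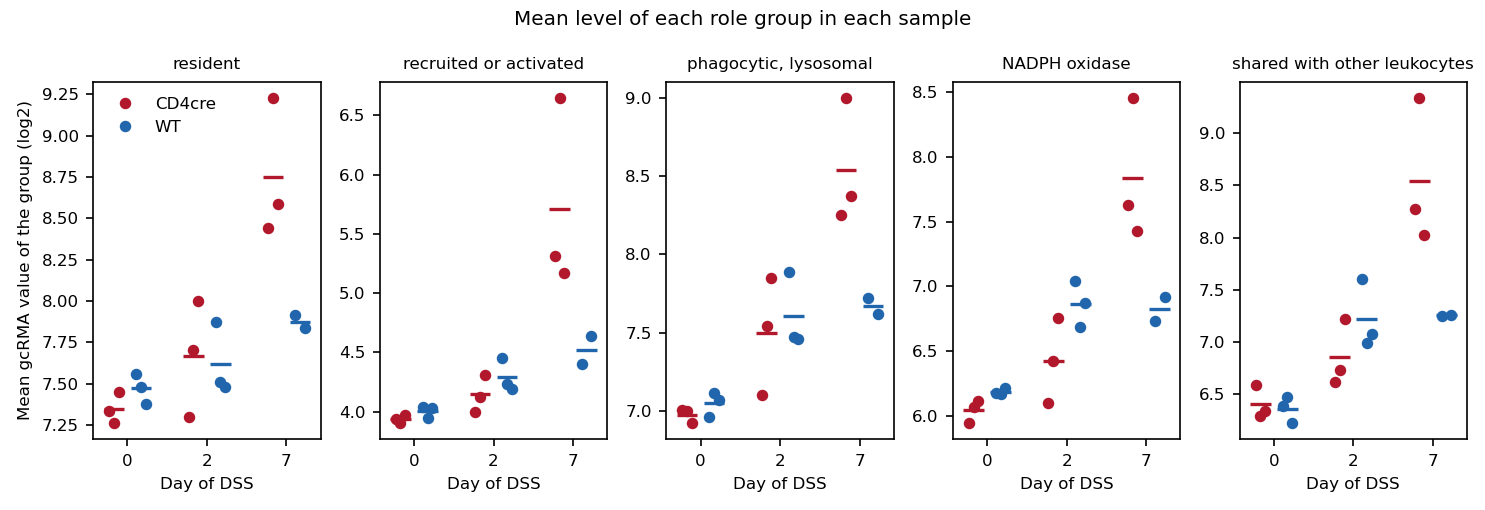
Mean value (log2) of the genes of each role group in each sample, by day of DSS, with CD4cre in red to the left of WT in blue; points are samples, lines are group means, and each panel has its own y axis. In all 5 panels the CD4cre day 7 samples are above every other sample, with replicate 2 the highest.

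The remaining 28 probe sets of the 34 genes gave 5 calls in CD4cre mice on day 7 against day 0, all higher (Clec4e, Clec4n, Cybb and 2 of Laptm5). The one of Cybb was under background in all samples (4.09 at most), while the other further probe set of Cybb, with values up to 6.32, did not pass (0.56, adjusted p = 0.46). In all, 16 of the 28 were at or under background in all samples.

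Genes of further lists linked to these cells rose in part in CD4cre mice on day 7 against day 0. Like the 34, they were chosen by name with earlier results of these data known, so their rise is no independent support. Of 16 genes of growth factors, receptors and regulators of macrophages, 10 rose and 0 fell. They included Fcgr1, the high-affinity IgG receptor (3.21 ± 0.34, adjusted p = 0.000707), Csf1r, the receptor that macrophages need to survive (1.62 ± 0.21, adjusted p = 0.00147), and its ligand Csf1 (1.44 ± 0.38, adjusted p = 0.0429). The further ligand Il34 was at background. Of 16 other genes of resident macrophages, 6 rose and 0 fell, among them the complement genes C1qa (1.95 ± 0.22, adjusted p = 0.000779) and C1qc (2.49 ± 0.29, adjusted p = 0.000993), while Lyve1 (0.64, adjusted p = 0.193) and Mertk (0.72, adjusted p = 0.224) did not pass. Of 9 monocyte genes, 4 rose and 1 fell: Chil3 was at least 8.53-fold higher, Vcan had a log2 fold change of 2.79 ± 0.51 at an adjusted p of 0.00877, and Cd177, a surface protein of neutrophils, fell by 2.59 (± 0.69, adjusted p = 0.046). In WT mice 0 genes of these lists passed on day 7.

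Of 10 chemokine ligands of Ccr1, Ccr2 and Cx3cr1, 4 rose in CD4cre mice by day 7 and 0 fell. Ccl2, the main ligand of Ccr2, was at least 13.7-fold higher on day 7, and Ccl12 at least 2.07-fold. Ccl8 had a log2 fold change of 4.04 ± 0.50 at an adjusted p of 0.0013, whereas Ccl5 (1.63, adjusted p = 0.224) and Ccl3 (adjusted p = 0.301), ligands of Ccr1, did not pass. Of 15 products and regulators of macrophage activation, 7 rose and 1 fell. Il6 was at least 23.3-fold and Il1b at least 72.3-fold higher, and Retnla, a product of alternatively activated cells, fell by 1.70 (± 0.30, adjusted p = 0.00678). Nos2 and Il12b were at background in all samples.

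Markers of other cell types moved in part with the 34 genes. Of 14 neutrophil markers 3 rose in CD4cre mice by day 7, S100a8 by at least 52.0-fold, S100a9 by at least 87.2-fold and Lcn2 by at least 16.2-fold, all of which other cells can also make, and 1 (Cd177) fell. The granule genes Mpo, Elane, Ngp, Camp and Ltf and the receptor Cxcr2 were among 9 at or under background in all samples. Whether neutrophils were present cannot be told from these 9. The neutrophil list averaged 4.26 to 5.14 in CD4cre mice and 3.71 to 3.79 in WT mice on day 7, against 3.21 to 3.36 and 3.16 to 3.27 on day 0, and the part of neutrophils in the levels of Clec4d, Trem1, Ncf1 and Tyrobp was not tested. Of 9 dendritic cell markers 3 rose, with Itgax, which macrophages share, at 1.96 ± 0.44 (adjusted p = 0.0221) and Clec10a, also made by macrophages, at 3.13 ± 0.46 (adjusted p = 0.00285), while Xcr1 and Zbtb46 were at background. Of 12 T cell, 9 B and plasma cell, 10 mast cell and eosinophil and 8 smooth muscle markers 0 passed. Of these, 10 T cell, 3 B and plasma cell and 8 mast cell and eosinophil markers were at or under background in all samples. The test therefore says little on T cells, mast cells and eosinophils. Of 14 epithelial markers 1 fell, the stem cell gene Lgr5, at least 4.75-fold lower on day 7 (adjusted p = 0.00766).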

How the data were processed

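Total RNA of colonic mucosa was hybridized to Affymetrix mouse genome arrays, 17 samples in 6 groups of genotype and day. The values the authors deposited are on the log2 scale: CEL files were read with affy and processed by gcRMA (background adjustment, normalization across arrays, summary per probe set) in R 2.9.0, so that a value depends on all arrays and cannot go below a floor of noise. The table's 17 sample columns were all used (0 left aside). Of 45101 probe sets, 64 array controls were left out and 45037 tested. The array annotation named 1 gene for 34945, several for 932 (not used for genes) and none for 9160.

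One limma model (version 3.58.1, R 4.3.3, empirical Bayes, 11 residual degrees of freedom) with 6 group means gave 11 comparisons, after a check on simulated data. P-values were adjusted by Benjamini-Hochberg over all 45037 probe sets, with a call at an adjusted p under 0.05. Within a list no adjustment or set test was made. A group with all samples at or under the background level of 4.21 has only a bound, so a fold against it is "at least" the higher group's mean over that level. Arrays give no counts, so their number limits the precision.

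All 34 genes were accounted for, with a value in every sample for the resident markers, for the genes of lowest adjusted p of each role in CD4cre mice on day 7 and for those called in any other comparison. Of the other lists up to 3 genes of lowest adjusted p were to be named, and those named beyond them were chosen after their values were seen. The 34 genes and the lists were chosen with earlier results of these data known. Alternatives were fits of only the groups compared, median centring, quantile normalization, dim probe sets left out, low values raised to background, trended and robust empirical Bayes, array quality weights, means over probe sets, a replicate block, a Hox score as covariate, and fits without samples with pancreas transcripts or without each sample in turn. The pairing of replicate numbers was checked and not found. RefSeq promoter windows (GRCm38.p6) supplied the sequences.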

Additional observations from a re-analysis of the deposited data

Results flagged for a closer look

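For Arg1 the effect of 7 days of DSS differed between the genotypes by a test of the difference itself (1.82 on the log2 scale, SE 0.28, adjusted p = 0.0318 in limma). Its values of 3.98, 4.02 and 3.21 in CD4cre mice on day 7 and 2.10 and 2.10 in WT mice on day 7 all lay under the background level of 4.21, so this value lies between levels that were not measured and is no size of a change.

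The dimmer probe set of Clec4e, which does not stand for the gene in the comparisons, carried a signal on day 7 in CD4cre mice that was not seen in the other groups, with a log2 fold change against day 0 of 3.45 (SE 0.79, adjusted p = 0.0249 in limma). All CD4cre samples of day 7 were higher than those of day 0, and replicate 3 (3.76) remained under the background level of 4.21.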

How the results depend on the processing

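Counts are of the 34 genes called. For CD4cre mice on day 7 against day 0 (25), leaving out each sample gave 18 to 27. A fit of only the groups compared gave 0, and all other settings gave 17 to 29. The 17 came from the fit without the samples with pancreas transcripts. For CD4cre day 7 against day 2 (20), only the groups compared gave 0, leaving out the samples with pancreas transcripts 10, and leaving out each sample 12 to 25. For CD4cre against WT mice on day 7 (5), only the groups compared gave 0, dim probe sets left out 10, low values raised to background 9, no samples with pancreas transcripts 1, the Hox score as covariate 3, and leaving out each sample 1 to 14. Of the 3 called with the Hox score, 2 were among the 5. For the difference of the day 7 effects (1), the count was 0 with only the groups compared, with dim probe sets left out (which removes Arg1) and without samples with pancreas transcripts, 10 with array quality weights, and 0 to 5 without each sample. In WT mice on day 7 against day 0 (0), only the groups compared gave 1, array quality weights 10 and leaving out each sample 0 to 1. In WT mice on day 2 against day 0 (0), array quality weights gave 13 and leaving out each sample 0 to 1. WT day 7 against day 2 (0) gave 1 with only the groups compared, and CD4cre against WT mice on day 0 (0) gave 5 with array quality weights. The estimate of these weights ended before convergence. Samples with the same replicate number did not deviate together (correlations of -0.494 to 0.419 over 40 pairs, 15 of them over 0.1). With the replicate block 24 genes were called in CD4cre mice on day 7 against day 0, 3 between CD4cre and WT mice on day 7 and 0 for the difference of effects. No direction reversed among the named results. The cause of these changes was not tested, beyond the removed gene. Fits of fewer groups held fewer samples and also took the spread from those groups alone, and these were not separated. Over probe sets with a mean above background, the root mean square SD between samples was 0.514 in CD4cre mice on day 7. It was 0.212 to 0.396 in the other groups. Groups of 2 or 3 samples limit all comparisons, and 6 genes were at background in all groups by the probe set that stands for them (Arg1, Cd80, Clec4e, Marco, Ptafr, Trem2).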
